A study of Mus musculus with 4 samples.

Results

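Transcripts of 9 complement genes were followed in cultured mouse macrophages labelled as wild type or as G3bp1 knockout. The genes were chosen by name: the chain genes C1qa, C1qb and C1qc, the components C4b and C3, the alternative pathway proteins Cfb and Cfp, and the receptors C3ar1 and C5ar1. All 9 were among the 34745 genes of the count table, each under a single identifier, and all 9 passed the filter on low counts, as did 12418 genes in total. The samples labelled WT were macrophages of mice with a floxed G3bp1 gene (G3bp1 f/f), and those labelled KO (G3bp1mac-/-) came from such mice that also carried Lyz2-Cre. G3BP1 is the scaffold protein of stress granules, cytoplasmic bodies of mRNA and protein that form in stressed cells. Each genotype had 2 libraries, numbered 1 and 2, grown in DMEM with serum. The study's text calls the cells bone marrow-derived, and no treatment, age or sex is given for these 4 samples. Lyz2-Cre acts in the myeloid lineage and not in macrophages alone, and nothing states that libraries of a genotype came from separate animals, so errors and p-values cover the spread between these libraries, which may be technical.

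Complement is a cascade of plasma and cell-surface proteins that marks targets for uptake. C1q recognises antibody, dying cells and some microbes, and starts the classical pathway, in which C4 is cleaved. C3 is the component on which all pathways meet, factor B (Cfb) forms the alternative pathway convertase with C3b, and properdin (Cfp) stabilises that enzyme. The small fragments C3a and C5a act on the receptors C3AR1 and C5AR1. Most complement protein in blood is made by the liver, whereas macrophages are a main source of C1q and, with other leukocytes, of properdin.

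The libraries held between 16724241 and 19747909 counts over genes. Levels of a gene across libraries are given as CPM, its counts scaled by library totals after TMM adjustment. By counting error alone, a gene without any count could have had up to 0.152 CPM in the library with the largest TMM-scaled total and 0.188 CPM in that with the smallest. G3bp1 itself had 104 and 180 CPM in WT and 70.1 and 117 CPM in KO. The genotypes overlapped (log2 change -0.61, SE 0.40, edgeR adjusted p 0.904), and counts over the whole gene do not show the loss of single exons. Within replicate numbers KO was lower, by a log2 ratio of -0.57 in number 1 and -0.63 in number 2, which is the direction of the labels. All directions from WT to KO rest on those labels. The 10 macrophage markers examined were all detected, with summed levels of 21310 to 26520 CPM, mostly from Lyz2. The summed level of 10 stromal markers was 103 and 116 CPM in WT and 463 and 426 CPM in KO. In bulk samples, fewer cells of a type and less RNA per cell cannot be told apart.

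The C1q chain genes lie side by side on the minus strand of chromosome 4. On the GRCm38 mouse genome C1qb spans 136880129 to 136886187, C1qc 136889804 to 136893065 and C1qa 136895917 to 136898803. The gaps between them are 3616 and 2851 bases, each gene has 3 exons, and the cluster covers 18675 bases. No other annotated gene overlaps them. Cfp, also on the minus strand, lies on chromosome X from 20925454 to 20931555 and has 9 exons. C1qb, C1qc and Cfp were the members with an unadjusted p under 0.05 between genotypes, and the bases before their transcription starts are shown so that the shared direction described further on can be set beside their promoters. Sequences are from RefSeq on GRCm38.p6, read 5′ to 3′ on the gene's strand. They stop before the start that lies farther upstream in RefSeq or GENCODE, which leaves 250 bases for C1qb (chr4:136886201-136886450), 99 bases for C1qc (chr4:136893066-136893164) and 250 bases for Cfp (chrX:20931556-20931805). Capitals mark matches to the PU.1 core GAGGAA or to TGCTGA, an end of the Maf recognition element, on either strand.

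C1qb: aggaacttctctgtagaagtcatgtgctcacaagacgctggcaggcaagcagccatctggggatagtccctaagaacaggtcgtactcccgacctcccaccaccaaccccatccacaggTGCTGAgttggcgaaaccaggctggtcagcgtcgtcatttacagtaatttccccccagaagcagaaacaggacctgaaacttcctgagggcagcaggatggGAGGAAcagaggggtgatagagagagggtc
C1qc: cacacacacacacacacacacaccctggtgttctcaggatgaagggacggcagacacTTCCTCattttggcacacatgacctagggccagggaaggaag
Cfp: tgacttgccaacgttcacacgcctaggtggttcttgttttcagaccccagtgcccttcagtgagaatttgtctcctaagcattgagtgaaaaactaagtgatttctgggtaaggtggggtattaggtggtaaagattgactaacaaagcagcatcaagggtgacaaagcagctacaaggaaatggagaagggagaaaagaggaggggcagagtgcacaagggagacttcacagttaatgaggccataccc

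Promoter sequences were found for 6 of the 9 members. None was found for C1qa, C4b and Cfb, which were not searched. In the others, the 250 bases before the RefSeq start were searched for 6 motifs on both strands. PU.1 is the transcription factor that sets up the myeloid lineage. Its core GAGGAA was in C1qb, starting 30 bases before the RefSeq start, and in C1qc, at 193 bases before it, against 23.3% of the 32851 promoters in the table. TGCTGA was in 4 of the 6, namely C1qb, C3, C3ar1 and C5ar1, against 16.1% of all promoters. The interferon-stimulated response element, written as GAAANNGAAA, and the STAT site TTCNNNGAA were in 0 of the 6, against 2.98% and 7.02%. A match to the NF-κB site was in C1qc only, 41 bases before the RefSeq start and inside the first exon of the GENCODE transcript, against 7.25% of all promoters. TATAAA was in C3ar1 only, against 12.4%. No matches overlapped. Such matches are runs of letters and not measured binding sites.

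Levels of different genes were compared per length, as the FPKM values of the authors (fragments per kilobase of gene model, scaled to the library total). C1qb was the most abundant member in all 4 libraries, with 538 and 515 FPKM in WT and 359 and 389 FPKM in KO. C1qa, C3ar1 and C1qc followed at means of 178 ± 27.4, 176 ± 49.4 and 164 ± 33.3 FPKM (SD over 4 libraries) and did not differ beyond their spread. C1qa ranked above C1qc in every library, while C3ar1 ranked second in KO replicate 1 and below both of them in the others. These 4 genes stood above at least 97.7% of the tested genes in mean FPKM.

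Cfp came next at 68.8 ± 15.6 FPKM, below those 4 and above the rest in every library. C3 and C5ar1, at 18.4 ± 9.96 and 13.5 ± 8.20 FPKM, overlapped, and so did C4b and Cfb at 3.09 ± 0.411 and 2.71 ± 1.92 FPKM. Transcripts for recognition (C1q) and for properdin were thus at higher levels than those of C3, C4b and Cfb in each library. The order within these groups depended on the gene length behind the values. For C1qc the deposited FPKM implied 2149 bases, where the main GENCODE transcript has 1203. With that transcript length, an alternative chosen after seeing the data, C1qc had a mean of 293 FPKM and ranked second, and C5ar1, whose length went from 5021 to 2540 bases, had 26.7 FPKM, above C3 at 20.3 FPKM. Cfb, at 4.75 FPKM, then ranked above C4b at 3.61 FPKM.

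**Figure D1:**
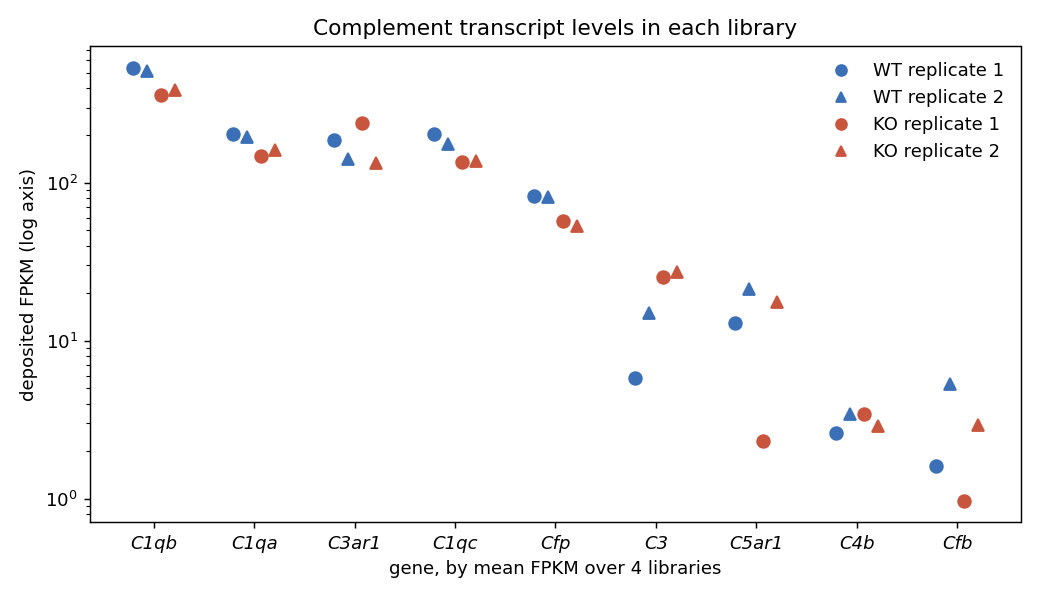
Deposited FPKM of the 9 complement genes in each library, on a log axis, ordered by mean level; blue marks WT, red marks KO, circles replicate 1 and triangles replicate 2. C1qb stands highest at 359 to 538 FPKM, the C1q chains and Cfp have both KO points below both WT points, C3 has both KO points above, and C5ar1 has a single low point of 2.31 FPKM in KO replicate 1.

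C1q chains assemble into a single protein, so the ratio between their transcripts was examined. C1qb exceeded C1qa 2.62-fold in both WT libraries, and 2.43-fold and 2.40-fold in KO replicates 1 and 2, in FPKM. The ratio of C1qb to C1qc was 2.62 and 2.90 in WT and 2.65 and 2.81 in KO with the deposited C1qc length of 2149 bases. With the GENCODE transcript length of 1203 bases it was 1.47 and 1.62 in WT and 1.48 and 1.57 in KO. At either length the proportions varied little between libraries, while the 3 chains together went from 948 and 888 summed FPKM in WT to 642 and 690 in KO. Their share of all counts was 0.124% and 0.115% in WT against 0.0835% and 0.0890% in KO.

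The main comparison asked which members differed between KO and WT. The edgeR quasi-likelihood test, in which a call needed both an adjusted p below 0.05 and more than 1 log2 unit of change, called 0 of the 9 members and 0% of the 12418 genes. The DESeq2 Wald test and the edgeR exact test also called 0 of the 9 members, and 181 and 174 genes in all. At an unadjusted p under 0.05 there were 3 members, all lower in KO (C1qb, C1qc and Cfp), where 1.99% of all tested genes were lower and 4.64% were higher at that level. Both KO libraries lay below both WT libraries for C1qa, C1qb, C1qc and Cfp, and 16.9% of all tested genes had that order. They lay above for C3, as for 20.0% of all tested genes. The median log2 fold change of the 9 members was -0.63, against 0.041 over all tested genes.

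C1qb had 613 and 595 CPM in WT and 350 and 425 CPM in KO. The genotypes did not overlap, and from means of 604 ± 13.1 and 388 ± 52.9 CPM (SD, n = 2 each) KO held 64.2% of the WT level. On the log2 scale KO minus WT was -0.64 (SE 0.23, 95% interval -1.22 to -0.057, edgeR adjusted p 0.676). The pair of libraries numbered 1 gave a log2 ratio of -0.81, and the pair numbered 2 gave -0.48.

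C1qc, the chain gene in the middle of the cluster, had 462 and 405 CPM in WT and 262 and 298 CPM in KO. The genotypes did not overlap, with means of 433 ± 40.6 and 280 ± 26.1 CPM (SD, n = 2 each), and KO was at 64.6% of WT. Its log2 fold change was -0.63 (SE 0.23, interval -1.22 to -0.041, edgeR adjusted p 0.688). C1qa had 224 and 217 CPM in WT and 138 and 169 CPM in KO. Both KO libraries were lower here too, at 69.6% of the WT mean, and the log2 fold change was -0.52 (SE 0.24, interval -1.13 to 0.084, edgeR adjusted p 0.837).

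The C1q values depended on a trend with gene length that differed between the libraries. Once that trend was removed from each library, the log2 fold change was -0.32 for C1qb and -0.19 for C1qa. For C1qc it was -0.54, with the length of 2149 bases named above. The uncorrected values of all 3 stayed negative without each library in turn. Since the genotypes did not overlap, leaving out a library could hardly have turned their sign. The corrected values were not recomputed in that way. The summed macrophage markers given above overlapped between genotypes, at 26520 and 24540 CPM in WT and 21310 and 24700 CPM in KO. Their part in the C1q values was not tested.

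Cfp, which encodes properdin, the positive regulator of the alternative pathway, had the narrowest spread of the members. It had 177 and 176 CPM in WT and 105 and 109 CPM in KO, or 177 ± 0.761 and 107 ± 2.83 CPM (SD, n = 2 each). The genotypes did not overlap, with KO at 60.5% of WT. The log2 fold change was -0.73 (SE 0.22, interval -1.28 to -0.17, edgeR adjusted p 0.521), and it was -0.76 within number 1 and -0.69 within number 2. It stayed between -0.76 and -0.61 under every alternative of normalisation, filter, test, length correction and left-out library. Neutrophils also make properdin, and 10 neutrophil markers, of which Elane and Mpo were at 0 in every library, summed to 30.02 and 25.7 CPM in WT and 9.23 and 12.0 CPM in KO. Their part in the Cfp values was not tested.

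Cfb (chromosome 17, 34856374 to 34862518, minus strand, 18 exons), which encodes the protease of the alternative pathway convertase, differed more between replicate numbers than between genotypes. Its counts were 131 and 431 in WT, and 78 and 279 in KO, or 8.08 and 27.0 CPM against 4.19 and 14.2 CPM. The genotypes overlapped, because the library numbered 2 was 3.35-fold above number 1 in WT and 3.39-fold above it in KO. Within each number KO was lower, by a log2 ratio of -0.94 in number 1 and -0.93 in number 2. The pooled log2 fold change was -0.93 (SE 0.78, interval -2.92 to 1.05, edgeR adjusted p 0.943). Leaving out WT replicate 2 gave 0.15, KO replicate 1 -0.31, WT replicate 1 -1.56 and KO replicate 2 -2.07. Gm20547, annotated across nearly the same bases on the same strand, had at most 2 counts in a library.

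C3 (chromosome 17, 57203970 to 57228136, minus strand, 41 exons) was the only member with both KO libraries above both WT libraries. WT replicates 1 and 2 had 563 and 1444 counts, and the KO replicates 2399 and 3073, or 34.7 and 90.6 CPM against 129 and 156 CPM. The means were 62.7 ± 39.5 and 142 ± 19.4 CPM (SD, n = 2 each), a ratio of 2.27. The log2 fold change was 1.18 (SE 0.49, interval -0.047 to 2.42, edgeR adjusted p 0.777), with 1.89 within number 1 and 0.78 within number 2. The WT libraries decided its size: leaving out WT replicate 1 gave 0.65, and leaving out WT replicate 2 gave 2.0. All 10 stromal markers examined also had a higher mean in KO (median log2 fold change 2.20), and fibroblasts are known to express C3. The part of stromal cells in the C3 difference was not tested.

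C4b (chromosome 17, 34728380 to 34743882, minus strand, 41 exons), the C4 gene of the classical and lectin pathways, had 17.3 and 23.0 CPM in WT and 19.4 and 18.1 CPM in KO. The genotypes overlapped, and the log2 fold change was -0.10 (SE 0.25, interval -0.73 to 0.53, edgeR adjusted p 0.982). KO was above WT within number 1 (log2 ratio 0.17) and below it within number 2 (-0.34), and leaving out WT replicate 2 turned the pooled value to 0.085. C4b has a near copy, C4a, with 3 to 11 counts in a library. Of all stretches of 100 bases in the longest C4b transcript, 16.5% were also in C4a, and how fragments of such stretches were assigned is not given in the sources used here, so both counts are uncertain to that extent.

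The receptors for the small fragments behaved unlike each other. C3ar1 (chromosome 6, 122847138 to 122856161, minus strand, 2 exons), the C3a receptor, had 843 and 649 CPM in WT and 932 and 577 CPM in KO. Both libraries numbered 1 were above both numbered 2, and the genotype means of 746 ± 137 and 754 ± 251 CPM (SD, n = 2 each) were closer than the libraries within either genotype. Its log2 fold change was 0.016 (SE 0.32, interval -0.79 to 0.82, edgeR adjusted p 0.996), an interval that leaves room for a difference either way. It was -0.37 when KO replicate 1 was left out and -0.19 when WT replicate 2 was.

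C5ar1 (chromosome 7, 16246743 to 16259540, minus strand, 2 exons), the C5a receptor that draws myeloid cells to sites of complement activation, rested on 1106 and 1799 fragments in WT and on 194 and 1753 in KO. In CPM these were 68.2 and 113 in WT and 10.4 and 89.1 in KO. KO replicate 1 was far below the other 3 libraries, and KO replicate 2 lay between the WT libraries. The pooled log2 fold change was -0.86 (SE 0.94, interval -3.25 to 1.52, edgeR adjusted p 0.962). Between libraries numbered 1 the log2 ratio was -2.71, and between those numbered 2 it was -0.34. Whether these ratios differ was not tested, since each number holds 1 library per genotype. Leaving out KO replicate 1 gave -0.022, KO replicate 2 -3.13 and WT replicate 2 -0.49. The ratio of C3ar1 to C5ar1 in FPKM was 104 in KO replicate 1 and between 6.71 and 14.4 in the other libraries.

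**Figure D2:**
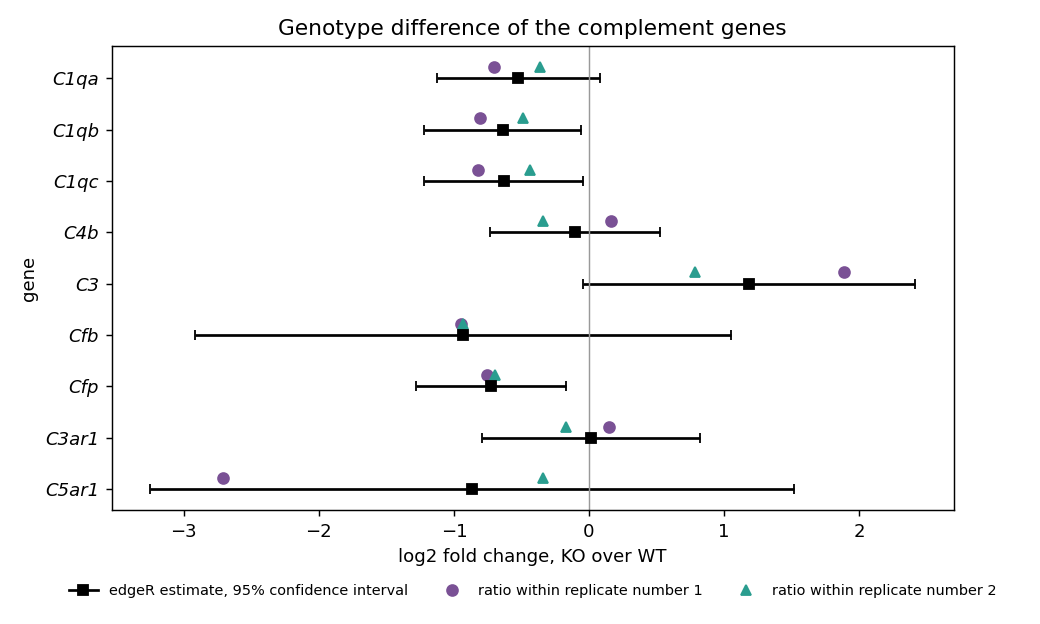
Log2 fold change of KO over WT for each complement gene: black squares with bars are the edgeR estimate and its 95% confidence interval over 2 libraries per genotype, purple circles and green triangles the ratio within replicate numbers 1 and 2. Cfp and Cfb have nearly equal ratios within both numbers, the C1q chains are negative in both, C3 is positive in both, and C5ar1 spreads from -2.71 to -0.34.

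The libraries of a genotype differed from each other by replicate number, and members took part in this to unequal degrees. Over all tested genes the median absolute log2 ratio of number 2 to number 1 was 0.40 in WT and 0.31 in KO. The C1q chains and Cfp were under these medians in both genotypes, with ratios between -0.19 and 0.30. Cfb had 1.74 in WT and 1.75 in KO, and C5ar1 had 0.73 and 3.09. C3 had 1.38 in WT and 0.28 in KO. C3ar1 was lower in number 2 of both genotypes, by -0.38 and -0.69. An absolute ratio above 1 was found for 15.3% of tested genes in WT and 10.9% in KO. What the numbers stand for is not given in the labels.

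**Figure D3:**
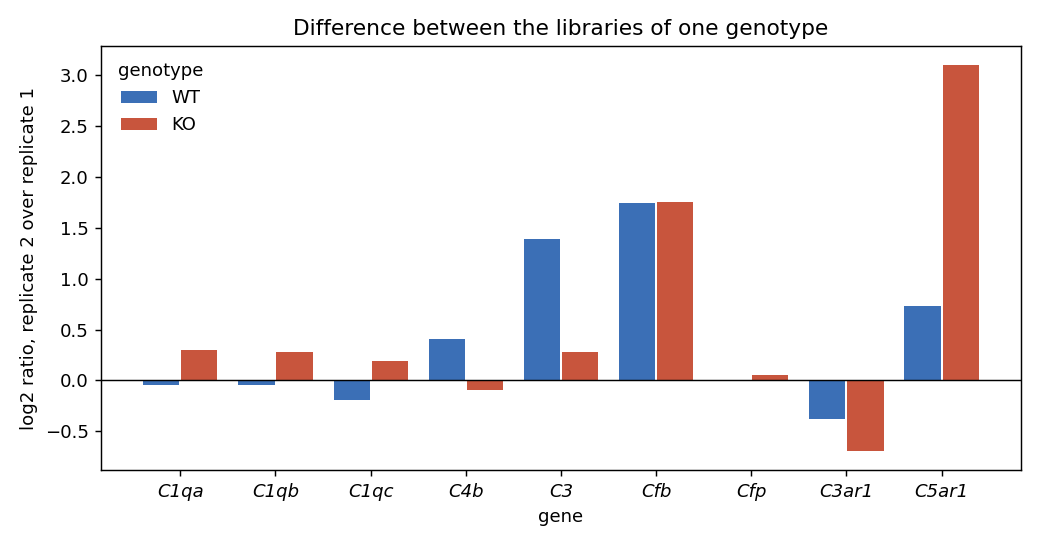
Log2 ratio of the library numbered 2 to the library numbered 1 within WT (blue) and within KO (red) for each complement gene; each bar compares 2 libraries and has no error. Cfb is 1.74 and 1.75 higher in number 2, C5ar1 reaches 3.09 in KO, and the C1q chains and Cfp stay between -0.19 and 0.30.

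The rest of the complement system was taken from a list of 46 other genes. Of these, 12 had 0 counts in all 4 libraries. They included the lectins Mbl1 and Mbl2, factor D (Cfd), the protease that cleaves factor B, and C5 (Hc). Of the 7 terminal pathway genes, 4 had no count and only C8g passed the filter, with 2 to 15 counts in a library. The 22 genes that passed the filter had a median log2 change of 0.25, and 15 of them were above 0, as were 6776 of all 12418 tested genes. Over all 12418 tested genes the DESeq2 Wald test called 181 and the exact test 174. Of the 22 they called 4 and 2, and the quasi-likelihood test called 0. With no adjustment, 6 genes had a p under 0.05 and were higher in KO, and 2 were lower, against 4.64% and 1.99% of all tested genes. Both KO libraries were above both WT libraries for 11 of the 22 and below them for 3, against 20.0% and 16.9% of all tested genes. The 6 and the 11 include Itgam by 1 of its 2 identifiers, whose sum overlapped between genotypes, as described further on.

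Regulators and a classical pathway protease made up most of the higher genes. C1s1, the protease of the C1 complex that cleaves C4, had 8.01 and 8.91 CPM in WT and 28.4 and 31.3 CPM in KO (log2 change 1.82, SE 0.23, edgeR adjusted p 0.216). Clu, which encodes clusterin, a soluble inhibitor of the terminal complex, had 8.82 and 9.60 CPM in WT and 31.4 and 29.2 CPM in KO (1.72, SE 0.22, edgeR adjusted p 0.216). Serping1, the C1 inhibitor, had 2.10 and 3.26 CPM in WT and 8.0 and 8.64 CPM in KO (1.63, SE 0.35, edgeR adjusted p 0.296). These genes were named for an unadjusted p under 0.05, and in each the genotypes were separated. The ratio was therefore positive within each number, for example 1.82 and 1.81 on the log2 scale for C1s1.

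Cd55, a membrane inhibitor of the convertases, had 9.56 and 7.91 CPM in WT and 25.4 and 18.2 CPM in KO (1.32, SE 0.29, edgeR adjusted p 0.301). Its genotypes did not overlap. C1s, C1 inhibitor and clusterin are known to be made by fibroblasts, and the summed stromal markers were also higher in KO, as given above. The part of stromal cells in these differences was not tested.

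The lower genes were Fcna and Cd59a. Fcna, a ficolin that macrophages make and that starts the lectin pathway, had 119 and 99.5 CPM in WT and 55.2 and 67.5 CPM in KO (log2 change -0.83, SE 0.25, edgeR adjusted p 0.516). Cd59a, the membrane inhibitor of the terminal complex, had 6.66 and 7.47 CPM in WT and 3.01 and 2.03 CPM in KO (-1.49, SE 0.35, edgeR adjusted p 0.342). Fcna and Cd59a both had the order of the C1q chains and Cfp, with both KO libraries lowest, as had 16.9% of all tested genes.

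Complement receptor 3 is the integrin pair of Itgam and Itgb2, which binds C3 fragments on targets. Itgb2 was at 1715 and 2092 CPM in WT and 1807 and 1952 CPM in KO, with overlapping genotypes and a log2 fold change of -0.018 (interval -0.55 to 0.51, edgeR adjusted p 0.994). Itgam stood under 2 overlapping identifiers. The one with more counts had 181 and 124 CPM in WT and 310 and 227 CPM in KO (log2 change 0.82, SE 0.31, edgeR adjusted p 0.725), and the other had 108 and 261 CPM in WT and 52.6 and 118 CPM in KO. Their sum was 289 and 385 CPM in WT and 363 and 346 CPM in KO and overlapped, so no direction is given for Itgam. Cd93, grouped with the membrane regulators and once described as a C1q receptor, had 364 and 256 CPM in WT and 551 and 299 CPM in KO, also overlapping (0.45, SE 0.38, edgeR adjusted p 0.943).

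Transcription factors linked to complement genes were examined as a list of 15. They include the interferon and NF-κB factors that act on Cfb and C3. The test called 0 of the 15, with 0 at an unadjusted p under 0.05 in either direction, and the DESeq2 Wald and edgeR exact tests also called 0. The median log2 fold change was -0.16. Cebpb, the most abundant by mean FPKM, had 216 and 487 CPM in WT and 139 and 351 CPM in KO (log2 change -0.52, SE 0.59, edgeR adjusted p 0.962). Irf1 and Nfkb1 were higher in number 2 of both genotypes, as Cfb was, with log2 ratios to number 1 of 3.26 and 2.64 for Irf1 and 2.77 and 2.24 for Nfkb1 (WT first).

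Cfb, C3 and C4b are known to respond to interferon, so 28 interferon-response genes were set beside them. Of the 27 tested, 26 had a log2 fold change below 0, with a median of -1.09, where 5642 of all 12418 tested genes were below 0. At an unadjusted p under 0.05, 9 were lower, against 1.99% of all tested genes. Of all 12418 tested genes the DESeq2 Wald test called 181 and the edgeR exact test 174. Of the 27 they called 6 and 3, and the quasi-likelihood test called 0. The summed level was 574 and 1246 CPM in WT and 384 and 642 CPM in KO, lower in KO within each number and higher in number 2 within each genotype. Cfb had this same order in its 4 libraries. C3 did not, since it was higher in KO within each number. C4b did not either, since KO was above WT within number 1 and number 2 was below number 1 within KO. The part of interferon signalling in the Cfb values was not tested.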

How the data were processed

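Total RNA of 4 macrophage samples was sequenced, 2 per genotype. According to the study's methods and the submitters' processing notes, the authors filtered reads with Seqtk, aligned them with HISAT2 2.0.4 and obtained fragments per gene with StringTie 1.3.3b. They deposited raw counts and FPKM values for 34745 genes. The notes name mm39, yet 27682 of the 34267 identifiers shared with GENCODE M21 had its exact GRCm38 position and strand, all 9 members among them, so positions are on GRCm38. Annotation and strand setting are not given in the sources used here, so overlapping and antisense genes may share counts. The deposited FPKM carried the library total and no TMM factor: for 10094 genes with over 30 counts in each library, the implied gene length differed between libraries by at most 0.0027%.

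The analysis of counts used edgeR 4.0.16 under R 4.3.3: filterByExpr (minimum count 10, minimum total 15), TMM, and glmQLFit with glmQLFTest on genotype, two-sided, with Benjamini-Hochberg adjustment over 12418 genes. Calls required an adjusted p below 0.05 and more than 1 log2 unit of change. Standard errors and 95% intervals came from the F statistic. CPM use TMM-scaled totals, mean ± SD is over 2 libraries, and ratios within a number had 0.5 counts added. Where a symbol had 2 identifiers, the one with more counts was tested. Alternatives were size factors from DESeq2, a filter on mean CPM (minimum 1) or none, the replicate number as a term, removal of each library's loess trend with gene length (span 0.5), the exact test of edgeR, the Wald test of DESeq2 1.42.0, no minimum fold, each library left out, and FPKM scaled by TMM.

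The members and all gene lists were chosen with earlier results of these data known. Always named were the 9 members and G3bp1. Of other complement genes and transcription factors, genotype values were given for those with an unadjusted p under 0.05 or called with the replicate term, and for the most abundant tested gene of each role; other genes named by counts were chosen after their values were seen. Lists of marker genes of endothelial, dendritic, T and NK, B, neutrophil, mast and erythroid cells had summed levels of at most 69.2 CPM in a library. Some genes of these lists are counted but not reported here by name. No sample was excluded.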

Additional observations from a re-analysis of the deposited data

How the results depend on the processing

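Cfb and C4b had the fewest counts over all libraries, with 78 to 431 in a library for Cfb and 280 to 366 for C4b. The errors did not follow depth. The SE was 0.25 for C4b and 0.24 for C1qa, which had 2566 to 3629 counts. It was largest for C5ar1, at 0.94, and that of Cfb went from 0.78 to 0.25 with the replicate block. The genotypes of C1qa, C1qb, C1qc, Cfp and C3 did not overlap, so leaving out a library could hardly turn the sign of their change. Of the log2 fold changes of the members, those of C1qa, C1qb, C1qc, Cfp, C3 and C5ar1 kept their sign under all 13 alternatives. That of C3ar1, close to 0, turned with DESeq2 size factors (-0.028), no filter (-0.0048), the replicate block (-0.013), the block with length correction (-0.10), the length correction (-0.071) and the DESeq2 Wald test (-0.028). With each library left out it ran from -0.37 to 0.31, that of C4b from -0.29 to 0.085 and that of Cfb from -2.07 to 0.15. Leave-one-out fits have an arm with 1 library, assumed to vary like the others. They called 0 members and 0 or 1 genes in all. The adjusted p of C1qb ran from 0.0646 to 1 over its alternatives and that of Cfp from 0.0244 to 1.

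Across genes, libraries with the same number deviated together from the mean of their genotype (correlation 0.692), but with 2 pairs and no such label the numbers are not shown to pair the samples. With the replicate block 664 genes were called, 3.98% of those tested higher and 1.37% lower, and the block with length correction called 390. The block called 2 of the 9 members, C3 (1.33, edgeR adjusted p 1.04e-06) and C5ar1 (-1.48, adjusted p 3.39e-07). With the length correction beside it, 2 were called, C3 (1.21, adjusted p 0.0205) and Cfb (-1.04, adjusted p 0.0162), while C5ar1 had an adjusted p of 0.101. C5ar1 with the block averages ratios of unequal size. Among the 27 interferon-response genes tested, the block called 0 higher and 15 lower, against the shares of all tested genes given above. Of the 22 other complement genes the block called 5 (4 higher, 1 lower) with and without the length correction, the DESeq2 Wald test 4 and the exact test 2. Over all genes these tests called 181 and 174. The median of the other complement genes was 0.18 without a filter, which adds genes, and 0.16 with the block and length correction, and 0.11 to 0.27 with each library left out. The cause of these differences was not tested. FPKM scaled by TMM moved no mean level of a member by more than its spread.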
